A study of Mus musculus with 9 samples.

Results

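Gene expression in mouse hepatocytes exposed to paraquat was set directly against that in the same cells exposed to diquat. The contrast used 6 of the 9 arrays of the study: 3 of TAMH cells given paraquat at 126 µM and 3 of TAMH cells given diquat at 18 µM, each for 9 h. No control value entered it, although the 3 arrays of cells kept in medium alone for 9 h shared the estimate of the spread. Genes were taken from array features that carry exactly 1 gene symbol, with the feature of highest mean kept for each gene, which gave 22180 genes from 34472 features. TAMH is an immortalized mouse hepatocyte line, so every group was the same 1 line, used at passages 30 to 40 in medium with dexamethasone and grown to confluence in 3 dishes per treatment. Whether those dishes were separate cultures is not stated, so the spread that the p-values rest on may be technical. The times matched and the doses did not. The paraquat concentration was 7 times that of diquat, and the labels call both toxicologically relevant, so a difference of compound and a difference of dose cannot be told apart in any result.

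Paraquat and diquat are viologens, doubly charged bipyridyl herbicides. In paraquat the rings are joined opposite their nitrogen atoms and each nitrogen carries a methyl group, whereas in diquat the rings are joined beside the nitrogens, which are tied to each other by a short ethylene bridge. Inside cells NADPH-dependent reductases pass an electron to either compound, and the radical hands it to oxygen, which yields superoxide and returns the parent compound to the cycle. Hepatocytes answer such redox stress through the transcription factor NRF2, which raises glutathione and thioredoxin genes, and through the integrated stress response, in which phosphorylation of the initiation factor eIF2 favours translation of ATF4 and its targets. Paraquat is best known for lung injury, and diquat has been widely used as a redox stressor of the liver.

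Levels are the deposited log2 values, and a difference is paraquat minus diquat on the log2 scale. Arrays of the 2 compounds correlated with each other across genes at a Pearson r of 0.9966 to 0.9985, and the lowest r within a compound was 0.9970 for diquat and 0.9986 for paraquat. Diquat replicate 3 stood apart. It differed from the average of the other diquat arrays by 0.134 (root mean square over genes), against 0.0714 to 0.115 for the other 8 arrays, and it lay alone at one end of the first principal component of the 6 arrays, which held 42.8% of their variance. Hepatocyte markers were bright on average in every array, with mean levels of 9.35 to 9.65 over the 15 measured. Albumin (Alb) lay between 12.68 and 12.81. Of those 15 markers, 2 lay below the median level of all genes, against 8 of 12 stellate, 7 of 12 macrophage and 10 of 11 endothelial markers. Cholangiocyte and progenitor markers had mean levels of 8.265 to 8.433 over the 10 measured, with 1 below that median.

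No gene passed an adjusted p of 0.05 between the compounds (0 of 22180, or 0%, in limma with Benjamini-Hochberg adjustment), and the smallest adjusted p was 0.0553. At an unadjusted p under 0.05 there were 2371 genes (10.7%), of which 1226 (5.53%) were higher with paraquat and 1145 (5.16%) lower. The 3 paraquat arrays lay wholly above the 3 diquat arrays in 1188 genes (5.36%) and wholly below them in 1150 (5.18%). Differences were small. Their median size was 0.05 on the log2 scale, 140 genes differed by at least 1.2-fold (46 higher with paraquat, 94 lower), 3 by at least 1.5-fold and the largest by 0.68. The precision was finer than a 1.2-fold change for most genes, since the 95% interval had a median half-width of 0.11. That interval lay within a 1.2-fold difference either way for 19296 genes (87%), within 1.5-fold for 22105 (99.7%) and within 2-fold for all but 5. The share within 1.2-fold was lower among genes that responded to the compounds, as given below. A difference of 2-fold was therefore outside the interval of nearly every gene measured, while a missed threshold does not show that the exposures acted alike.

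The 4 genes nearest the threshold, each at a limma adjusted p of 0.0553, were Tat, Mir505, Prelid2 and Mllt11. Tat encodes tyrosine aminotransferase, the first enzyme of tyrosine breakdown in liver and a classical glucocorticoid-induced gene. Its level was 8.92, 8.82 and 8.82 in the controls, 8.33, 8.34 and 8.31 with diquat, and 9.09, 8.80 and 8.82 with paraquat. The paraquat arrays lay within 0.02 of the controls or above them, and the diquat arrays well below both. Between the compounds Tat was 0.58 higher with paraquat (95% interval 0.42 to 0.73), or 1.49-fold.

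Mir505, the locus of the microRNA miR-505, had the largest difference of all genes. Its level was 6.32, 6.43 and 6.40 in the controls, 7.05, 7.14 and 7.18 with diquat, and 6.35, 6.66 and 6.33 with paraquat, so that the diquat arrays stood clear of all 6 others. The difference was -0.68 (95% interval -0.86 to -0.50), or 1.60-fold. The feature covers the locus and does not tell the arms of the hairpin apart, or a mature form from its precursor. Both mature sequences, from RefSeq (GRCm38.p6, minus strand of the X chromosome), are shown 5′ to 3′ with the seed, bases 2 to 8, in capitals because the seeds differ and no arm can be assigned. The 3p arm lies at chrX:60394416-60394437 and the 5p arm at chrX:60394451-60394473.
mmu-miR-505-3p: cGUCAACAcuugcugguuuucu
mmu-miR-505-5p: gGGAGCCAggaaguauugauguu

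Prelid2 belongs to the PRELI family, whose better-known members carry lipids between mitochondrial membranes. Its level was 7.44, 7.45 and 7.43 in the controls, 7.79, 7.75 and 7.83 with diquat, and 7.51, 7.44 and 7.36 with paraquat. Again only the diquat arrays stood away from the controls, and the difference was -0.35 (95% interval -0.45 to -0.26). Mllt11, first described as a fusion partner of MLL in leukaemia, differed in another way, since both compounds raised it. It read 7.90, 7.97 and 7.93 in the controls, 8.59, 8.58 and 8.69 with diquat, and 8.29, 8.27 and 8.27 with paraquat. The paraquat arrays lay between the other groups, with a difference of -0.34 (95% interval -0.43 to -0.26). Mllt11 has 2 features, and its difference ran from -0.37 to -0.26 over the alternative settings. Against the controls, which both comparisons share, the diquat change passed limma's adjusted p for all 4 genes (Tat -0.53, Mir505 0.74, Prelid2 0.35, Mllt11 0.69), and the paraquat change passed for Mllt11 (0.34, adjusted p = 0.000953) but not for Tat (0.05), Mir505 (0.06) or Prelid2 (0.00). The 4 genes passed the adjusted p between the compounds after quantile normalization of the arrays (0.0296 to 0.0302) and when genes below the median level were left out (0.0269). In a fit of the 6 arrays alone, with their own estimate of the spread, the smallest adjusted p over all genes was 0.483.

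**Figure D1:**
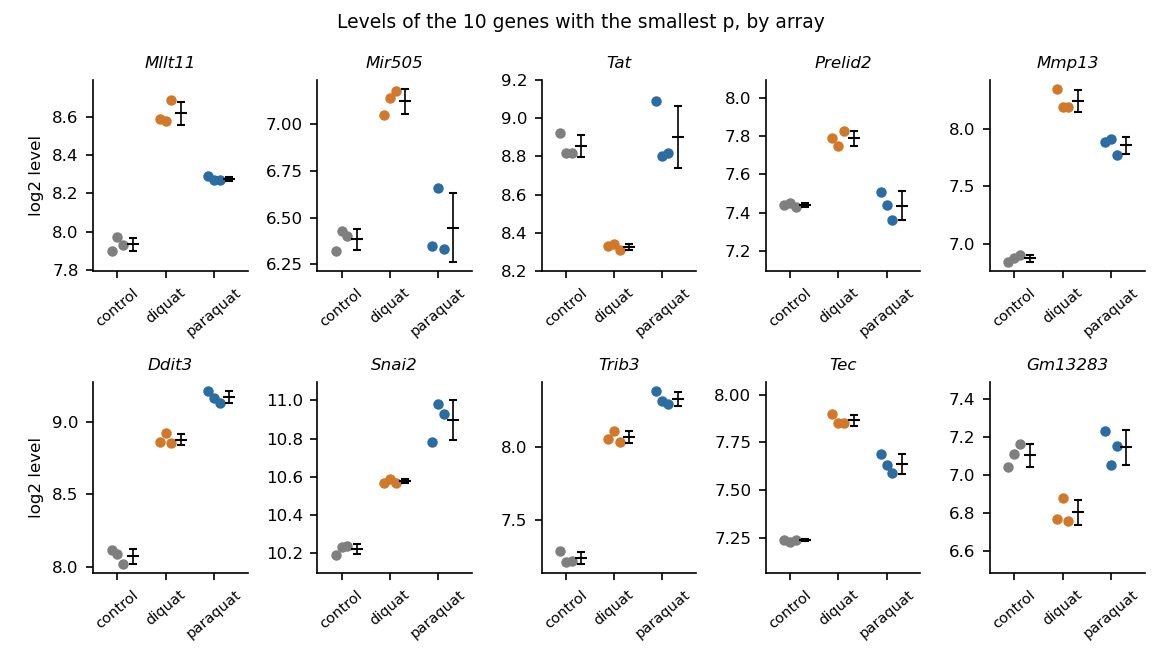
Deposited log2 levels of the 10 genes with the smallest p between paraquat and diquat, with 1 dot per array (3 per group), and the mean and SD of each group as a black bar beside the dots. The vertical scales differ between panels and do not start at 0; the paraquat and diquat dots do not overlap in any panel, and in Tat, Mir505, Prelid2 and Gm13283 the paraquat mean lies 0.00 to 0.06 from the control mean, with 1 paraquat dot above all controls in each.

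Among genes of the integrated stress response, Ddit3, Trib3 and Atf3 were higher with paraquat and Atf4 was nearly level. Ddit3 encodes CHOP, the factor tied to death during prolonged stress. It read 8.12, 8.09 and 8.02 in the controls, 8.86, 8.92 and 8.85 with diquat, and 9.21, 9.16 and 9.13 with paraquat, so the 3 groups did not overlap. The difference was 0.29 (95% interval 0.20 to 0.38, limma adjusted p = 0.119). Trib3, a pseudokinase induced by CHOP that feeds back on it, had the same pattern: 7.29, 7.21 and 7.22 in the controls, 8.05, 8.11 and 8.03 with diquat and 8.38, 8.31 and 8.29 with paraquat, a difference of 0.26 (limma adjusted p = 0.211). Atf3 differed by 0.22 (limma adjusted p = 0.356) and Adm2 and Ppp1r15a, the latter an eIF2 phosphatase subunit, by 0.15 and 0.12. Atf4 itself differed by 0.04 (95% interval -0.06 to 0.14) and its target Asns, asparagine synthetase, by 0.01 (-0.12 to 0.14). Of 24 measured members, 5 (20.8%, against 5.53% of all genes) were higher with paraquat at an unadjusted p under 0.05: Ddit3, Trib3, Atf3, Adm2 and Ppp1r15a. Lower were 3 (12.5%, against 5.16% of all genes): Eif2ak2, Tnfrsf10b and Sesn2. All 24 lay above the median level of genes, where 3.91% of genes were higher and 9.02% lower. None of the 24 passed the adjusted p, and the list median was 0.03 against 0.01 over all genes. After centring each array that median was 0, with 3 members on either side at an unadjusted p under 0.05, and without diquat replicate 1 or 2 the count higher was 3. Against control the same number of members, 16 of 24, rose with each compound and none fell. Over all genes limma called 4.13% higher and 2.89% lower with diquat, and 2.33% higher and 2.24% lower with paraquat.

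Amino acid genes that ATF4 serves were counted in 2 lists. Of 16 genes of amino acid synthesis and one-carbon metabolism, 13 had positive differences with a median of 0.06, and 3 (18.8%, against 5.53% of all genes) were higher with paraquat at an unadjusted p under 0.05 with none lower (2 to 4 higher when 1 array was left out, and 1 lower without paraquat replicate 1). The count higher was 1 after centring each array and 5 after quantile normalization. These were Aldh1l2, a mitochondrial folate dehydrogenase (0.15), Cth, which makes cysteine (0.13), and Bcat1, a branched-chain transaminase (0.13, and 0.08 without paraquat replicate 2). The mean change of the list against control was 0.23 to 0.26 in the diquat arrays and 0.29 to 0.32 in the paraquat arrays, without overlap. Among 22 amino acid transporters 19 differences were positive, with 2 members higher and 2 lower at an unadjusted p under 0.05 (9.09% each way, against 5.53% and 5.16% of all genes). After centring 12 transporter differences were positive and 10 negative. Slc7a3, a carrier of cationic amino acids, read 5.64, 5.71 and 5.64 in the controls, 5.90, 5.94 and 5.94 with diquat and 6.10, 6.17 and 6.15 with paraquat (difference 0.21, limma adjusted p = 0.248), with all values below the median level of genes. Slc1a4, a carrier of neutral amino acids, was 0.17 higher with paraquat, whereas the cystine importer Slc7a11 and Slc7a2 were 0.22 and 0.21 lower. The transporter counts were 5 higher and 1 lower without diquat replicate 3, 4 and 1 without paraquat replicate 3, and 5 and 2 after quantile normalization.

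Snai2 encodes Slug, a repressor of epithelial genes. It read 10.19, 10.23 and 10.24 in the controls, 10.57, 10.59 and 10.57 with diquat, and 10.78, 10.98 and 10.93 with paraquat, a difference of 0.32 (95% interval 0.21 to 0.43, limma adjusted p = 0.211). Inhbe, the activin E subunit secreted by liver, was 0.28 higher with paraquat. Other genes higher with paraquat by 1.2-fold or more included Acot2, a mitochondrial acyl-CoA thioesterase (0.29), Aspg, an asparaginase (0.28), Lpo, lactoperoxidase (0.28), and Cebpe (0.27, and 0.16 without diquat replicate 3). For genes with several features the value could depend on the feature: with the mean of their features in place of the brightest, Ppp2ca, a catalytic subunit of the phosphatase PP2A, went from 0.31 to 0.10, Myl12a from 0.28 to 0.10 and the gene model Gm13283 from 0.34 to 0.20. Acot2 lay on opposite sides of the controls with the compounds: the controls read 9.34 to 9.40, the diquat arrays 9.26, 9.15 and 9.33, and the paraquat arrays 9.49, 9.55 and 9.56. Neither change of Acot2 against control passed limma's adjusted p (0.162 and 0.11).

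Mmp13 and Timp1, which act on matrix collagen, were lower with paraquat. Mmp13, an interstitial collagenase and a classical AP-1 target, read 6.84, 6.88 and 6.90 in the controls, 8.35, 8.19 and 8.19 with diquat, and 7.89, 7.91 and 7.77 with paraquat. Both compounds raised it and the paraquat arrays lay below the diquat arrays, with a difference of -0.39 (95% interval -0.51 to -0.27, limma adjusted p = 0.119). Timp1, the inhibitor of such collagenases, read 8.73, 8.71 and 8.67 in the controls, 9.09, 8.99 and 9.19 with diquat and 8.90, 8.78 and 8.76 with paraquat (difference -0.28, limma adjusted p = 0.302). These were the only 2 of 15 plasminogen activation and matrix genes at an unadjusted p under 0.05 (13.3% lower, against 5.16% of all genes), and the list median was -0.02. Plau and Plaur, the urokinase pair, each differed by -0.07. Tec, a cytoplasmic tyrosine kinase, was 0.23 lower with paraquat (limma adjusted p = 0.231) after rises with both compounds, and Csf2 and Ier3 were 0.22 and 0.23 lower, the former 0.11 lower with the mean of its features. Several other genes lower with paraquat by 1.2-fold or more had smaller differences without diquat replicate 3, but Bnip3, described below, went from -0.40 to -0.44. Rnmt went from -0.39 to -0.24, Map2k5 from -0.38 to -0.25 and Rsph3b from -0.36 to -0.24. Anapc15, Rnf138, Atad5 and Ssbp1, each at -0.34, went to -0.20, -0.145, -0.14 and -0.27. Ssbp1 has 2 features, and its difference ran from -0.41 to -0.17 over the alternative settings.

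Promoter windows of 3 genes whose differences are given here are printed because they hold a motif of a factor tied to these responses. The windows run from 250 bases before the RefSeq start to 50 after it (GRCm38.p6, all on the plus strand): Ddit3 at chr10:127290543-127290842, Mmp13 at chr9:7272264-7272563 and the second of 3 Txnrd1 windows at chr10:82858956-82859255. Capitals mark TGANTCA, the AP-1 motif, in Ddit3 and Mmp13, and TGACNNNGC, the core of the antioxidant response element bound by NRF2, in Txnrd1, where the match is on the other strand. Both strands were searched, and the motifs can overlap because each can begin with TGA.
Ddit3 promoter: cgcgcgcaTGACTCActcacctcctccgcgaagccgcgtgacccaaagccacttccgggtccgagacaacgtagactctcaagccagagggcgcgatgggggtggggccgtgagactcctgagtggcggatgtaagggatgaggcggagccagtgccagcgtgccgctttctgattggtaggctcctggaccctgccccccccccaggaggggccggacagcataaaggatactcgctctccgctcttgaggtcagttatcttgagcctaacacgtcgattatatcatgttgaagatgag
Mmp13 promoter: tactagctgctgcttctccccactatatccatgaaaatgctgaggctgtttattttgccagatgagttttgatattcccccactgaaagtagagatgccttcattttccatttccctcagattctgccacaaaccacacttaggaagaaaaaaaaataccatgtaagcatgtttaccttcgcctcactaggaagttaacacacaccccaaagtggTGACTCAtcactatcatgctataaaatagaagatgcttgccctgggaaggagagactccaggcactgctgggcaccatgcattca
Txnrd1 promoter: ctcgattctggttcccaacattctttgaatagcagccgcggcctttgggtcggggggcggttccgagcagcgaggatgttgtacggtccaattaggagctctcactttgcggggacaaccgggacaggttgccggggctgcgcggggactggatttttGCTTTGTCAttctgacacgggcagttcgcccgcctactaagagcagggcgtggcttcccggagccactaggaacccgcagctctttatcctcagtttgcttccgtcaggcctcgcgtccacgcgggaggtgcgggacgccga
The AP-1 match begins 242 bases before the start in Ddit3, which was higher with paraquat, and 35 bases before it in Mmp13, which was lower. The other 2 Txnrd1 windows hold neither motif, nor do the windows of Tat, Trib3, Mllt11 and Tec. Of all 32851 RefSeq windows of this length, 7.81% hold TGANTCA and 12.4% hold TGACNNNGC. A match is a description of letters and shows no binding.

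Genes of the antioxidant response were mostly lower with paraquat, by small amounts. Txnrd1, the cytosolic thioredoxin reductase, which can also reduce viologens, read 10.23, 10.26 and 10.24 in the controls, 10.66, 10.64 and 10.68 with diquat, and 10.50, 10.41 and 10.45 with paraquat. The groups did not overlap, and the difference was -0.21 (95% interval -0.29 to -0.13, limma adjusted p = 0.248). Slc7a11, which imports cystine for glutathione, had the largest average response of all genes and read 7.71, 7.45 and 7.80 in the controls, 10.20, 10.29 and 10.33 with diquat and 10.12, 10.02 and 10.02 with paraquat. Its difference of -0.22 (95% interval -0.40 to -0.04, limma adjusted p = 0.423) stood beside changes of 2.62 and 2.40 against control. Hmox1, heme oxygenase 1, differed by -0.15 (-0.09 without diquat replicate 1), the NRF2 antagonist Bach1 by -0.18, the glutathione transferase Gstm3 by -0.17 and the glutathione synthesis subunit Gclm by -0.10. The NRF2 list held 20 targets and 7 regulators. Of these 27 genes 24 had negative differences (17 targets and all 7 regulators), with a median of -0.07. At an unadjusted p under 0.05 there were 8 lower with paraquat (29.6%, against 5.16% of all genes) and 1 higher (3.7%, against 5.53%). The latter was Nqo1 (0.15), whose levels of 5.36 to 5.63 were below the median of all genes. The 8 became 3 without paraquat replicate 2 or 3, 5 without diquat replicate 1 or 3, and 10 without paraquat replicate 1. Of 17 thioredoxin and glutaredoxin genes 7 (41.2%, against 5.16% of all genes) were lower, among them Txnrd3 (-0.20) and Glrx3 (-0.17). The 1 higher (5.88%, against 5.53%) was the thioredoxin inhibitor Txnip (0.27). That count of 7 was 2 to 5 when any 1 of the 6 arrays was left out, with 2 without diquat replicate 1 or paraquat replicate 3. It was 3 after quantile normalization and 7 after centring. The list of superoxide and peroxide removal held 19 genes, of which 6 were oxidant sources and the others removal genes. Of the 19, 4 (21.1%, against 5.16% of all genes) were lower with paraquat at an unadjusted p under 0.05. All were removal genes: Gpx8 (-0.17), Sod1 (-0.12), Prdx4 (-0.11) and Sod2 (-0.10). The oxidase Nox1 was higher (0.08), and catalase (Cat) differed by 0.00 (95% interval -0.11 to 0.11). The count lower was 3 to 5 when 1 array was left out, 2 after quantile normalization and 6 after centring.

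Nearly all differences of p53 targets were negative. Of 31 measured, 30 had negative differences, with a median of -0.10. At an unadjusted p under 0.05, 12 (38.7%, against 5.16% of all genes) were lower with paraquat with none higher. They included the apoptosome component Apaf1 (-0.22), Trp53inp1 (-0.20), the death receptors Fas (-0.18) and Tnfrsf10b (-0.16), the stress sensor Sesn2 (-0.13) and the polymerase Polk (-0.17). Of the textbook targets, Cdkn1a, the p21 cell cycle inhibitor, differed by -0.05 (95% interval -0.15 to 0.05) and Mdm2, which degrades p53, by -0.09 (-0.21 to 0.04). Tnfrsf10b read 10.54, 10.55 and 10.56 with diquat and 10.42, 10.35 and 10.40 with paraquat, against 10.07 to 10.17 in the controls. Apaf1 read 8.63, 8.44 and 8.74 with diquat and 8.44, 8.42 and 8.30 with paraquat, so that these arrays met at 8.44. The mean change of the list against control was 0.16, 0.13 and 0.22 in the diquat arrays and 0.09, 0.07 and 0.08 in the paraquat arrays. The count of 12 was 8 to 13 when 1 array was left out, lowest without diquat replicate 3. No member passed the adjusted p.

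Hypoxia and glycolysis genes also lay lower with paraquat. Of 28 measured, 26 differences were negative with a median of -0.06. At an unadjusted p under 0.05, 8 (28.6%, against 5.16% of all genes) were lower with none higher (5 without paraquat replicate 3 and 6 to 11 without any other of the 6 arrays). Bnip3, a mitophagy receptor, read 7.64, 7.52 and 7.50 in the controls, 7.88, 7.74 and 7.71 with diquat and 7.53, 7.49 and 7.10 with paraquat (difference -0.40, 95% interval -0.63 to -0.18, limma adjusted p = 0.339, and -0.27 without paraquat replicate 3). Its diquat arrays lay above the controls and its paraquat arrays among or below them, although neither change against control passed. The vasodilator peptide Adm (-0.24), the prolyl hydroxylase Egln3 (-0.23), the glycolytic enzyme Pgam1 (-0.21) and the pyruvate dehydrogenase kinase Pdk1 (-0.16) followed. Hk2, Ldha, Pgk1 and Slc2a1 lay between -0.03 and 0.03. Interferon-stimulated genes gave 5 lower of 24 (20.8%, against 5.16% of all genes), with none higher (9 lower without paraquat replicate 1, 3 lower and 2 higher without paraquat replicate 3, 4 lower after quantile normalization and 9 after centring), led by Ifit1 (-0.22) and the RNA sensor kinase Eif2ak2 (-0.19), which also counts among the stress response members. Oas1g, an antiviral synthetase, was 0.41 lower with paraquat (limma adjusted p = 0.372).

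These list counts have to be read beside a dependence on level. Genes were divided by mean level into 4 bins of nearly equal size. In the brightest bin, with mean levels above 8.38, the median difference was -0.02 and 9.79% were lower with paraquat at an unadjusted p under 0.05 while 2.62% were higher. In the second-lowest bin the median was 0.04, with 1.52% lower and 9.54% higher. Among all genes above the median level 9.02% were lower and 3.91% higher at that p. Of those genes 57.9% had negative differences of any size, against 44.6% of all genes. The p53, NRF2, hypoxia and interferon lists lay mostly there, with 30 of 31, 24 of 27, 25 of 28 and 21 of 24 members. So did the thioredoxin and glutaredoxin list, with 16 of 17. Quantile normalization left medians of 0.00 to 0.01 in the bins, and 9 of 31 p53 targets, 5 of 27 NRF2 list genes and 5 of 28 hypoxia genes were then lower at an unadjusted p under 0.05, against 4.91% of all genes. Negative differences of any size then numbered 27, 22 and 22 in these lists, against 47.3% of genes in the third bin and 48.1% in the brightest. Without diquat replicate 3 the medians of the bins lay between -0.01 and 0.02 and the same counts were 8, 5 and 8, against 4.19%. The p53 list median was -0.09 in the former and -0.06 in the latter. What part level has in these counts was not tested.

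**Figure D2:**
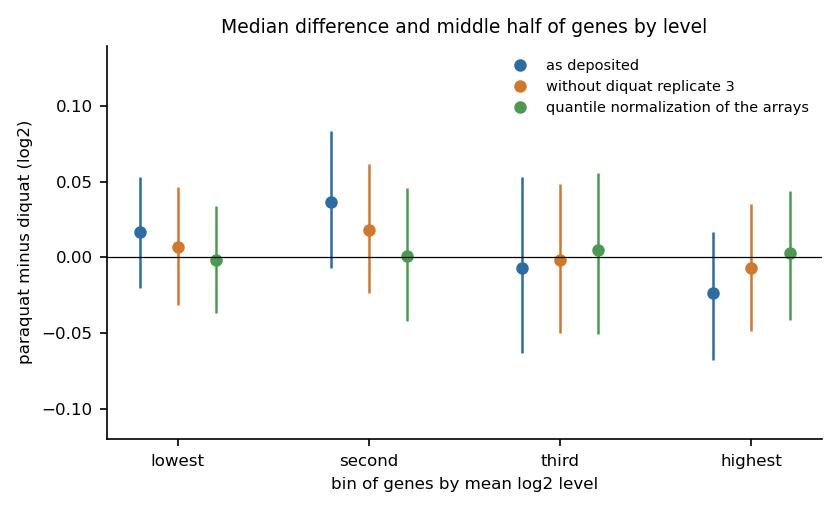
Median difference between paraquat and diquat (dots) and the range of the middle 50% of genes (lines), for genes divided into 4 bins by mean log2 level, as deposited, without diquat replicate 3 and after quantile normalization. As deposited, the medians run from 0.04 in the second-lowest bin to -0.02 in the brightest; after quantile normalization they lie within 0.01 of 0.

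**Figure D3:**
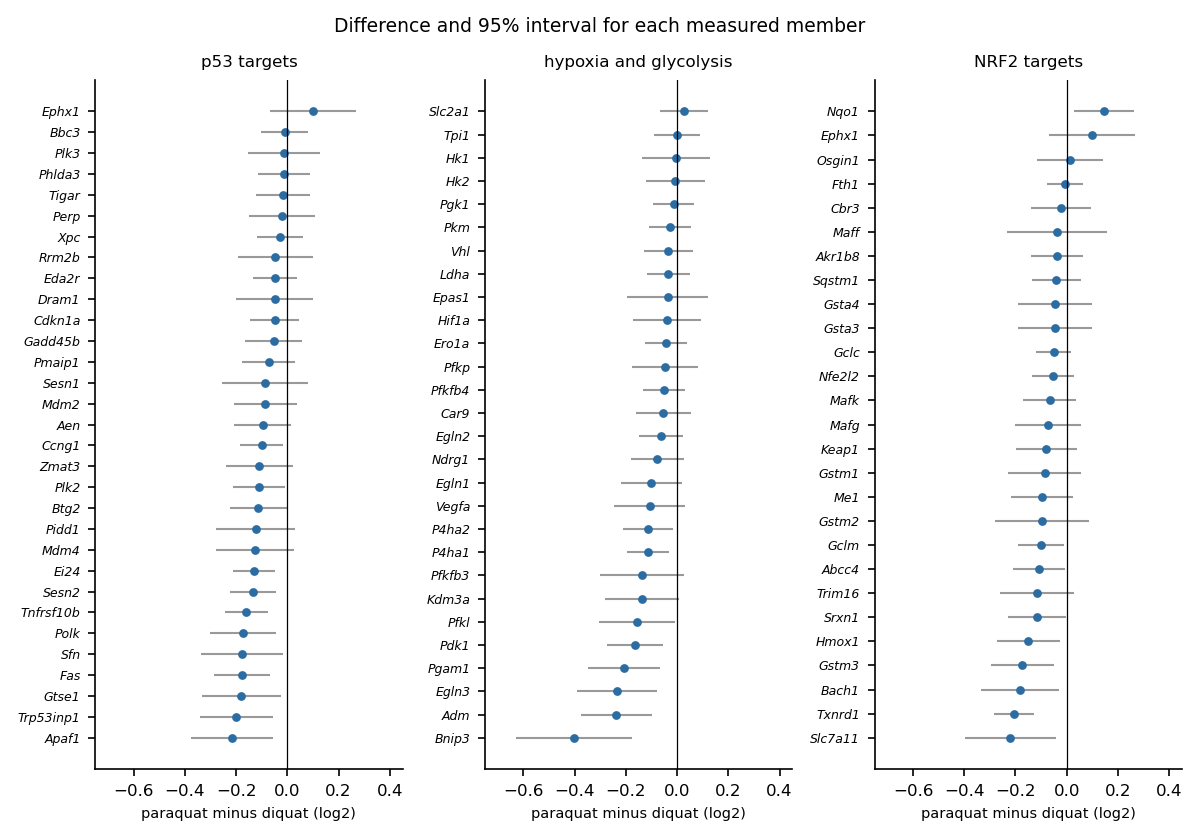
Difference between paraquat and diquat on the log2 scale (dots) with its 95% interval (lines) for every measured member of the p53 (31), hypoxia and glycolysis (28) and NRF2 (27) lists. Most dots lie left of 0, and Bnip3, at -0.40, is the farthest from it.

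Several glucose handling genes lay higher with paraquat. Of 16 glucose handling genes, 5 (31.2%, against 5.53% of all genes) were higher with paraquat at an unadjusted p under 0.05 and none lower, and 4 and 0 when any 1 of the 6 arrays was left out. After centring 8 differences were positive and 8 negative, with 4 higher at that p. Slc2a2, the liver glucose transporter, read 7.69, 7.74 and 7.60 in the controls, 6.41, 6.39 and 6.56 with diquat and 6.61, 6.67 and 6.69 with paraquat (difference 0.20, limma adjusted p = 0.343), with no overlap between groups. Txnip, which also restrains glucose uptake, read 9.62 to 9.70 in the controls, 8.48, 8.34 and 8.71 with diquat and 8.84, 8.66 and 8.84 with paraquat, where the groups overlapped. The other 3 were Slc2a5 (0.14), and Pck1 (0.13) and Pck2 (0.12), which make phosphoenolpyruvate. Among 16 urea cycle and amino acid breakdown genes Tat (0.58) and Aass (0.16), of lysine breakdown, were higher (12.5%) and none lower. The count higher was 5 without diquat replicate 1 or paraquat replicate 1 and 4 after quantile normalization, and 1 gene was lower without diquat replicate 2 or paraquat replicate 1. Cps1, the entry enzyme of the urea cycle, fell by 0.75 and 0.80 against control and differed by -0.05 (95% interval -0.30 to 0.20). Cytochrome P450 genes and their receptors gave 6 higher (19.4%) and 2 lower (6.45%) of 31, and 2 and 1 without paraquat replicate 2. After centring the counts were 3 and 3, and after quantile normalization 2 and 3. Those higher with the largest differences were Cyp2c29 (0.27), Cyp2f2 (0.14) and Cyp2e1 (0.13), with mean levels below the median of all genes. The 2 lower were Ahr (-0.17), the dioxin receptor, and its target Tiparp (-0.21, and -0.12 with the mean of its features). Dgat2, the last enzyme of triglyceride synthesis, was 0.21 higher with paraquat.

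Fgg, the fibrinogen gamma chain, depended on 1 array. It read 8.81, 8.93 and 8.83 with diquat and 8.84, 8.35 and 8.23 with paraquat, a difference of -0.38 (limma adjusted p = 0.398), which became -0.57 (adjusted p = 0.0368) without paraquat replicate 1. Of 43 secreted liver proteins 3 (6.98%, close to the 5.16% of all genes) were lower with paraquat at an unadjusted p under 0.05 and none higher. Without paraquat replicate 1, 13 were lower, against 5.85% of all genes in that fit. Snai2 (0.38) and Tat (0.48) also passed in that fit at the same adjusted p. Albumin (Alb) differed by 0.00 (95% interval -0.09 to 0.09).

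**Figure D4:**
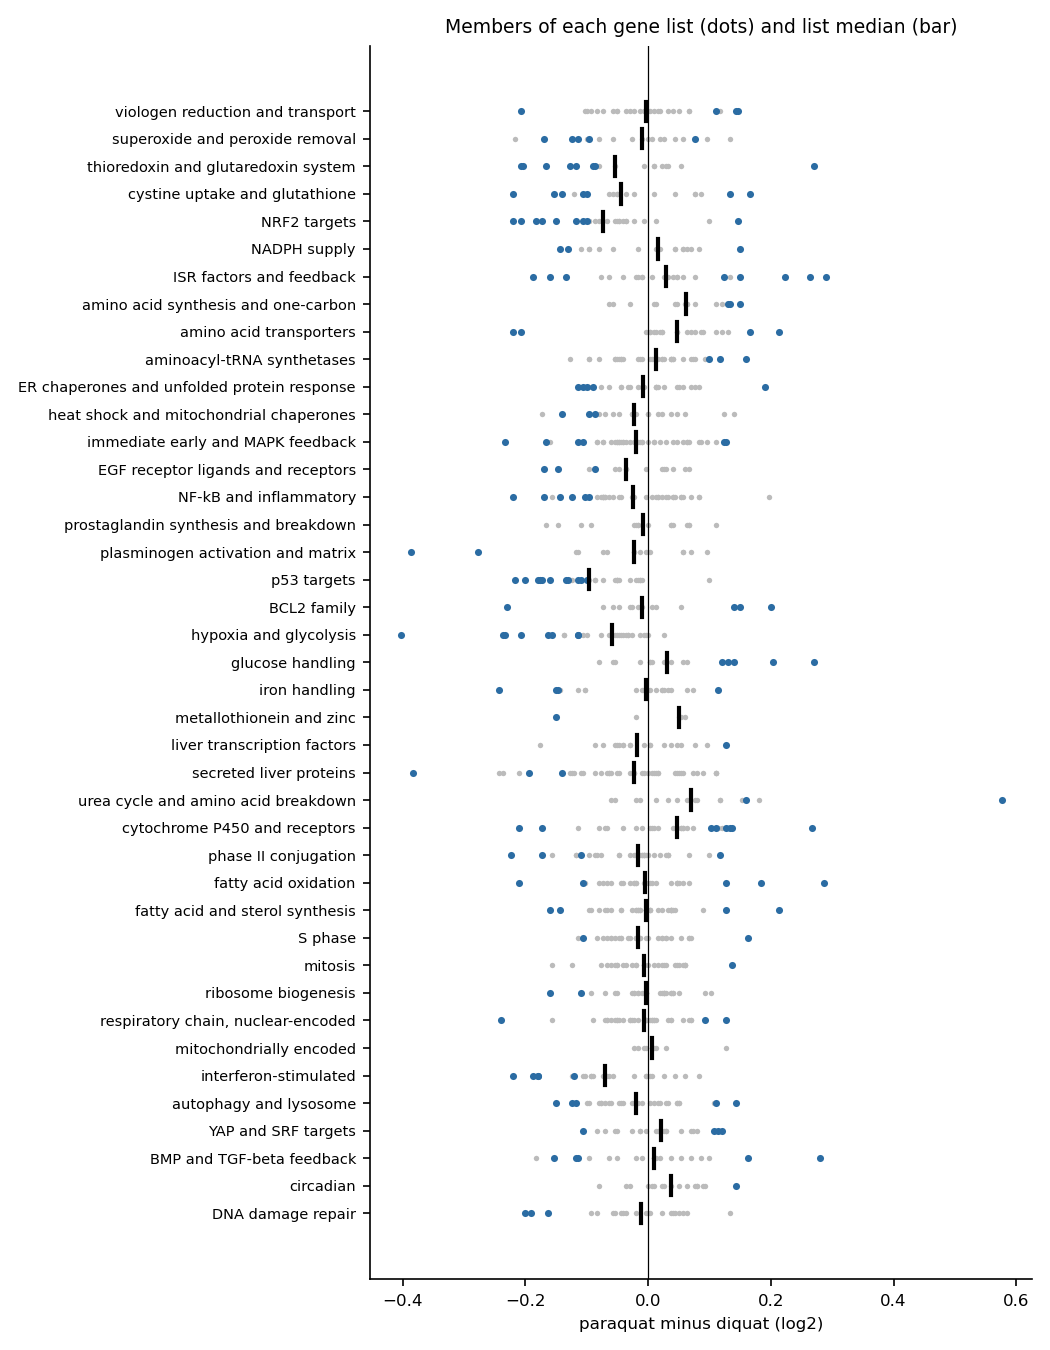
Difference between paraquat and diquat on the log2 scale for every measured member of 41 gene lists (dots; blue at an unadjusted p under 0.05, grey otherwise) and the list median (black bar). The p53 median, -0.10, lies farthest below 0 and the urea cycle and amino acid breakdown median, 0.07, farthest above.

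Genes that responded to the compounds were chosen by the average of both exposures against control, a contrast orthogonal to the difference between them: 411 genes (1.85%) were higher and 280 (1.26%) lower than control at a limma adjusted p under 0.05 and at least 1.2-fold. Both contrasts share the same estimate of the spread, so a choice by adjusted p favours genes with a small spread. Among the 411, 276 (67.2%) had a lower level with paraquat, against 44.6% of all genes, and the median difference was -0.05. At an unadjusted p under 0.05, 95 (23.1%, against 5.16% of all genes) were lower with paraquat and 30 (7.3%, against 5.53%) higher. Their median change from control was 0.39, 0.39 and 0.46 in the diquat arrays and 0.36, 0.36 and 0.37 in the paraquat arrays, so the diquat arrays lay above without overlap. Without diquat replicate 3 the median difference was -0.03 with 78 (19%) lower and 32 (7.79%) higher, against 4.19% and 4.48% of all genes. Among the 72 genes that responded by 1.5-fold or more the median difference with all arrays was -0.01. For the 280 genes lower than control the median difference was -0.01 and the arrays overlapped, at -0.35, -0.39 and -0.32 with diquat and -0.29, -0.40 and -0.39 with paraquat. The 95% interval lay within a 1.5-fold difference for 406 of the 411 and 277 of the 280. It lay within a 1.2-fold difference for 280 of the 411 (68.1%) and 201 of the 280 (71.8%), against 87% of all genes. Among genes that responded by 1.5-fold or more, that held for 41 of the 72 higher and 12 of 26 lower than control.

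Some of the strongest responders had nearly equal levels. Creb5, a CRE-binding factor, rose with each compound, from 8.20, 8.29 and 8.36 in the controls to 9.50, 9.48 and 9.47 with diquat and to 9.50, 9.43 and 9.52 with paraquat (difference 0.00, 95% interval -0.10 to 0.10). Tfrc, the transferrin receptor, rose by 1.09 and 1.08 (difference -0.01, interval -0.12 to 0.11), and Onecut1, a liver transcription factor, fell from 8.27 to 8.55 in the controls to 7.25 to 7.39 with diquat and 7.17 to 7.41 with paraquat (difference 0.00, interval -0.18 to 0.18). Ptgs2, the inducible cyclooxygenase, rose by 2.29 and 2.14 and differed by -0.15 (interval -0.34 to 0.04), or by -0.10 without diquat replicate 3. The proliferation marker Mki67 fell by 0.27 with each and differed by -0.01, whereas Tk1, the thymidine kinase of S phase, read 9.91, 9.88 and 9.87 with diquat and 10.05 in all 3 paraquat arrays (difference 0.16, limma adjusted p = 0.309). The endoplasmic reticulum chaperone Hspa5 differed by 0.01 (interval -0.06 to 0.09), and its regulator Xbp1, which fell with diquat (-0.39) but did not pass with paraquat (-0.20), by 0.19.

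**Figure D5:**
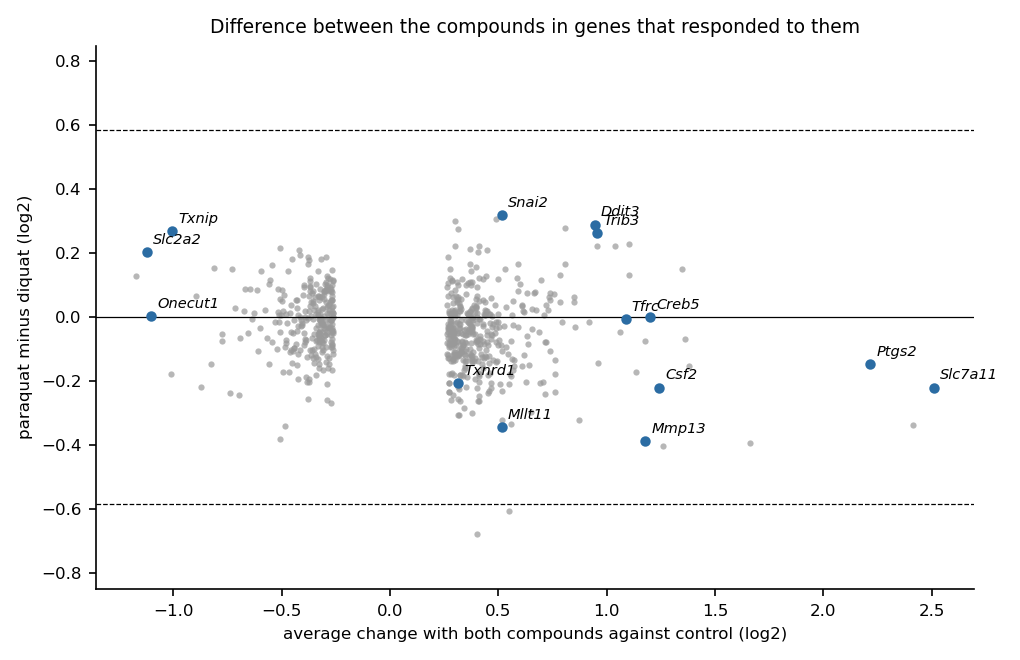
Difference between paraquat and diquat (vertical axis, log2) against the average change with both compounds from control (horizontal axis, log2) for the 411 genes higher and 280 lower than control on average; dashed lines mark a 1.5-fold difference. Slc7a11, the farthest to the right, differs by -0.22, and Creb5, Tfrc and Onecut1 lie within 0.01 of 0.

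Small noncoding RNAs held several of the largest differences. Snora28, a guide of RNA pseudouridylation, read 7.08, 7.14 and 7.54 in the controls, 7.86, 8.15 and 8.30 with diquat and 7.53, 7.42 and 7.54 with paraquat (difference -0.61, limma adjusted p = 0.309). Rnu3a, the U3 RNA of ribosomal RNA cleavage, read 6.60 to 6.72 in the controls, 8.43, 8.41 and 8.73 with diquat and 8.26, 8.06 and 8.07 with paraquat (difference -0.39), and Snord118, the U8 RNA, differed by -0.40. Both were raised by each compound. Of 85 snoRNA and guide RNA genes 59 had negative differences, with a median of -0.08. At an unadjusted p under 0.05, 9 (10.6%, against 5.16% of all genes) were lower and 4 (4.71%, against 5.53%) higher. Mir1931 differed by -0.46 and by -0.32 without diquat replicate 3, whose value of 6.75 was the highest of that group (6.29 and 6.35 for the others). The mature sequence from RefSeq, chr10:93162879-93162900 on the plus strand of GRCm38.p6, is given with its seed in capitals, which is not that of either arm of miR-505.
mmu-miR-1931: aUGCAAGGgcuggugcgauggc
Across 478 microRNA genes the median difference was 0.01. At an unadjusted p under 0.05, 35 (7.32%, against 5.53% of all genes) were higher and 13 (2.72%, against 5.16%) lower.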

How the data were processed

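Total RNA of 9 TAMH dishes, 3 per group, was hybridized to Affymetrix Mouse Gene 2.1 ST arrays. The deposited values are log2 levels rounded to 2 decimals, which the authors made with Affymetrix Expression Console 1.1 and RMA, per the submitters' processing notes. RMA subtracts background, brings arrays to a common distribution and combines probes. Neither its settings nor the annotation build is given in the sources used here. No depth applies to arrays, and their number limits the precision. Groups and replicate numbers came from the sample titles, because the descriptions number every diquat and paraquat array 1.

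Of 34472 features, 23521 carried 1 gene symbol, 1814 several and 9137 none. The brightest feature was kept for the 1082 genes with several. Features with several symbols or none were left out. limma 3.58.1 (R 4.3.3) was fitted with lmFit and eBayes to the 9 arrays, with 1 mean per group, and p-values were adjusted by Benjamini-Hochberg over 22180 genes. Intervals are 95% intervals of that fit. The fit was also run on simulated data with independent normal noise of its own estimated spread. Those data held no outlying array and no shift with level, so that run does not cover these traits of the real arrays. Of 1174 entries in 46 gene lists, 5 of them cell markers, 1064 were measured, with older symbols updated through the RefSeq table. Lists were described by counts and medians, without set tests.

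Genes were named as the 12 highest and 12 lowest differences among bright genes whose arrays did not overlap, the 10 smallest p-values, the 3 smallest p-values of each list, the 10 largest average responses each way, 37 measured genes of a fixed list, and up to 5 small RNAs. Other members of a list are named where its count is given, and were chosen after their values were seen. The members and lists were chosen with earlier results of these data known. Alternatives covered the arrays in the fit, a replicate block, a trend with intensity, a filter on level, centring, quantile normalization, gene summaries, array weights, testing past a 1.2-fold change, protein-coding genes and leaving out each array. List values under other scalings and without single arrays were added after seeing the data.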

Additional observations from a re-analysis of the deposited data

How the results depend on the processing

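The count of genes past limma's adjusted p between the compounds was 0 as reported and 0 in most other settings. It was 4 among genes above the median level and 4 after quantile normalization (Mir505, Mllt11, Prelid2 and Tat both times), 1 after centring each array on its median (Mir505), and 0 to 3 when 1 array was left out: 3 without paraquat replicate 1 (Fgg, Snai2 and Tat) and 1 without paraquat replicate 2 (Mir505). The count of genes higher with paraquat at an unadjusted p under 0.05, 1226 as reported, was 803 with the 6 arrays alone, 431 among genes above the median level, 512 after centring, 1 against a fold of 1.2 and 696 to 1836 with 1 array left out. The count lower, 1145 as reported, was 1791 after centring, 6 against a fold of 1.2 and 711 to 1701 with 1 array left out; centring thus turned a split of 1226 and 1145 into one of 512 and 1791, and moved the median of all genes from 0.01 to -0.02. For the genes higher than control on average, the median difference of -0.05 was -0.08 after centring, -0.01 among those of at least 1.5-fold and -0.065 to -0.03 with 1 array left out; for those lower than control it was -0.05 to 0.0133. The filter on level and the 6-array fit test fewer genes or arrays by construction; otherwise the cause was not tested.

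With the replicate number as a block, 0 genes passed (smallest adjusted p 0.083), 1320 were higher and 1148 lower at an unadjusted p under 0.05, and no call changed. Deviations of same-numbered diquat and paraquat arrays correlated at -0.19, 0.20 and -0.12. Those of control and diquat arrays correlated at 0.04, 0.08 and -0.11, and those of control and paraquat arrays at 0.16, 0.13 and 0.09. So few correlations cannot decide whether the numbers pair these samples. Of 186 named genes, 6 passed the adjusted p in at least 1 setting. Without detection calls, which were not used here, dim values may be background.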

Other observations

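None of 16 prostaglandin genes and none of 10 mitochondrially encoded genes differed at an unadjusted p under 0.05 (5.53% of all genes were higher and 5.16% lower). Of 34 aminoacyl-tRNA synthetases 3 were higher with paraquat and none lower, and all 34 intervals lay within a 1.2-fold difference, as did those of all 33 S-phase genes. Of 38 NF-kB and inflammatory genes 6 were lower with paraquat, among them Csf2 (-0.22), Tnf (-0.17) and the inhibitor gene Nfkbia (-0.12), and none was higher; the count lower was 1 without paraquat replicate 3, 2 without paraquat replicate 2 and 3 without diquat replicate 3. Of 16 genes of the EGF receptor list (8 ligands, 4 receptors and 4 protease-related genes) 3 were lower with paraquat and none higher. These were the ligand Btc and the protease-related Adam17 and Rhbdf2, with no receptor among them. The count lower was 0 without paraquat replicate 2 or 3. Of 26 endoplasmic reticulum chaperones and genes of the unfolded protein response 4 were lower and 1 higher, with 0 lower without diquat replicate 3 or paraquat replicate 3. Of 20 heat shock and mitochondrial chaperones 3 were lower and none higher, with 1 lower without diquat replicate 2 or 3 or paraquat replicate 2. Of 12 macrophage markers 3 were higher and none lower, with 1 higher without diquat replicate 3 or paraquat replicate 2. In the BCL2 family the death-promoting Bcl2l11, or Bim, was 0.23 lower with paraquat, while its relative Bik was 0.20 (0.08 without diquat replicate 3) and the survival gene Bcl2l2 0.15 higher. The biliary keratins Krt23, Krt7 and Krt19 were 0.22, 0.18 and 0.10 higher with paraquat, and the other 7 of 10 cholangiocyte and progenitor markers differed by -0.06 to 0.01. None of these genes passed limma's adjusted p.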
